A study of Mus musculus with 12 samples.

Results

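The H3K9/14ac landscape described here is that of wild-type T helper 17 (Th17) cells, the CD4 T cells that make interleukin-17. It rests on 3 ChIP libraries of the 12 samples in the series, WT replicates 1, 2 and 3. They were chosen by their label and by no measured value. The other samples are 3 libraries of cells without GLUT3 (Slc2a3-fl/fl with Cd4-cre) and 6 inputs, and were not analysed here. The cells were wild type, on the C57BL/6 strain. Naive CD4 T cells were driven towards the Th17 fate in vitro over 3 days. A restimulation of 3 h used PMA and ionomycin, and Bref A and Monensin, which block secretion, were present. Such a culture is a bulk population, in which fewer cells of a type and less acetylation per cell cannot be told apart. The 6 barcoded ChIP samples, both genotypes together, shared a single immunoprecipitation. The labels do not say whether the replicates came from separate mice, so the spread between libraries may be technical.

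H3K9/14ac marks histone H3 acetylated at lysine 9 or lysine 14. Histone acetyltransferases write this mark at active promoters and enhancers, and histone deacetylases remove it. Wide acetylated domains are known from genes that define a cell type, and short high peaks from the promoters of genes that most cells use. In T cells the mark is known to lie over the receptor genes, the lineage transcription factors and the cytokine genes that a subset can express.

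Each protein-coding gene was given a window, its GRCm38 span plus 5 kb to each side. Covered bases are the bases of that window inside a called peak, and the highest fold is the largest linear enrichment over background that the authors' peak caller gave to a peak in it. Both were averaged over the 3 libraries. The 21887 genes were ranked on each, with 43507, 40997 and 42771 peaks in WT replicates 1 to 3 covering 70.5, 65.2 and 66.5 Mb. The height of each peak could be recovered in fragments, and the mean coverage was 3.99, 3.48 and 2.97 fragments, so WT replicate 3 was the shallowest library. With 1 group there is nothing to test, and all values are descriptions.

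A promoter shows what the 2 ends of this landscape look like in sequence. The next 6 sequences are the 150 bases before the RefSeq start of a gene, on the gene's strand, from the GRCm38.p6 promoter table, with each CG in capitals. The first 3 starts lay under a peak in all 3 libraries, and the last 3 in none. Rpl4 encodes a ribosomal protein and shared the first place by fold with its neighbours Zwilch and Snapc5. Il17a encodes the cytokine that names the Th17 cell, and Tnf encodes tumour necrosis factor. Ifng encodes the Th1 cytokine interferon gamma, Alb the albumin of hepatocytes and Hoxd13 a limb patterning factor.
Rpl4, chr9:64173237-64173386, plus strand: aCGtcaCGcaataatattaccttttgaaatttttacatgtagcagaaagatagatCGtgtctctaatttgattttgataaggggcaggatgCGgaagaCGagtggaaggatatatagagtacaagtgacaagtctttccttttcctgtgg
Il17a, chr1:20730755-20730904, plus strand: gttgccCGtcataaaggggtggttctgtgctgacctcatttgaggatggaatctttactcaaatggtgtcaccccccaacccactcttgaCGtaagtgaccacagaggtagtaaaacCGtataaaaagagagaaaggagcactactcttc
Tnf, chr17:35202008-35202157, minus strand: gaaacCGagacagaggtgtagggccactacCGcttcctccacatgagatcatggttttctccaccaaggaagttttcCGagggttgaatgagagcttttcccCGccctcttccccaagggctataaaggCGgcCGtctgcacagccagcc
Ifng, chr10:118440896-118441045, plus strand: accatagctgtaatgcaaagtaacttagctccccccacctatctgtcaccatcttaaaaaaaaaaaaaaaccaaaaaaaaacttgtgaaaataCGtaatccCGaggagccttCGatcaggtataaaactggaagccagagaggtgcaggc
Alb, chr5:90460720-90460869, plus strand: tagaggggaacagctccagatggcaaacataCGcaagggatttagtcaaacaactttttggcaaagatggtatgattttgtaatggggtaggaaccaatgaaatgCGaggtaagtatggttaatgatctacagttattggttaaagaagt
Hoxd13, chr2:74668075-74668224, plus strand: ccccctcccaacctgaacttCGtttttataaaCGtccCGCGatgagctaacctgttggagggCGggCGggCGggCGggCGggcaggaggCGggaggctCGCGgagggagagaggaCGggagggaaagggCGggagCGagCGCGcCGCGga
CG occurred 5 times before Rpl4, 3 times before Il17a, 6 times before Tnf, 3 times before Ifng, 2 times before Alb and 19 times before Hoxd13. CG, which reads the same on both strands, was present in 85.7% of the 32851 promoters of this length in the table, with a median of 4. The covered and the uncovered starts shown thus overlapped in their CG counts, and the promoter with the most was an uncovered one.

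A peak reached the window of 12815 genes in all 3 libraries, which is 58.6% of all genes. Another 434 genes had one in 2 libraries and 475 in 1 library. No library had a peak in the windows of 8163 genes, or 37.3%. Whether a gene had a peak thus differed between libraries for 909 genes. Over the genes covered in all 3 libraries the median was 2.75 kb of covered bases, 8.24% of the window and a highest fold of 9.67. Long coverage was rare: 1037 genes reached a mean of 10 kb, 51 reached 50 kb and 11 reached 100 kb. The highest fold reached a mean of 20 in 375 genes and of 30 in 29 genes.

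The ranking by covered bases was led by Wwox, a large gene for a WW domain oxidoreductase known as a tumour suppressor (chr8, span 913 kb). Its peaks covered 233, 210 and 204 kb in WT replicates 1 to 3, a mean of 216 kb ± 15.5 (SD, n = 3), spread over 104 to 107 peaks. Bach2, a repressor that restrains effector differentiation of T cells, followed with 184, 183 and 185 kb, a mean of 184 kb ± 0.775. The covered bases of Bach2 lay in 22 to 24 peaks, fewer than those of Wwox, and they filled 51.4% of its window against 23.3% for Wwox. Inpp4b, a phosphoinositide phosphatase, had 178, 163 and 171 kb. Foxp1, a transcription factor that keeps T cells quiescent, had 162, 160 and 159 kb. These 4 genes held ranks 1 to 4 in each library.

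Below them the order was less firm. Itpr1, a calcium release channel of the endoplasmic reticulum, had 139, 128 and 128 kb. Dlg2, a synaptic scaffold, had 131, 122 and 133 kb, and its span of 1973 kb is so long that this was 6.50% of its window. F13a1, the A subunit of coagulation factor XIII, had 121, 132 and 134 kb, which was 66.6% of its window and the largest share among the 25 leading genes. Prkch, a protein kinase C, had 135, 120 and 122 kb. Rora, a nuclear receptor of Th17 cells, had 132, 113 and 120 kb. The ranges of these genes overlapped, and they changed places between libraries within ranks 5 to 9. Of the 24 neighbouring pairs among the 25 leading genes, 17 had overlapping ranges.

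The other leaders included several regulators of lymphocytes. Exoc2, of the exocyst complex, had 110 kb ± 2.57 and lies beside Irf4. Hivep3 and Hivep2, zinc finger factors, had means of 104 and 90.8 kb. Arhgef3, a guanine nucleotide exchange factor, had 98.4 kb, and the ETS factor Etv6 had 89.9 kb. Bcl2, which blocks apoptosis, had 94.4, 83.5 and 84.3 kb. The T cell factors Ets1 and Lef1 had 70.9 kb ± 0.648 and 69.2 kb ± 0.903. Ets1, Lef1 and Bach2 were even between libraries, while Maml2 and Tg varied most among the 25.

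**Figure D1:**
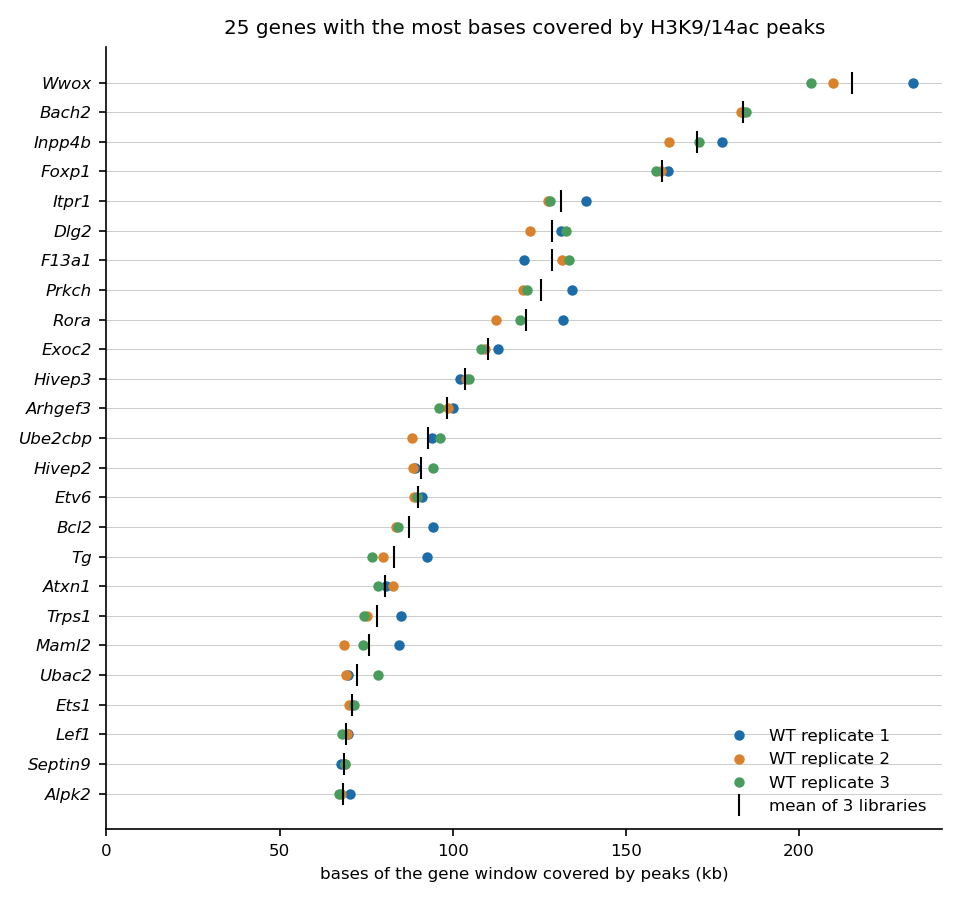
Bases covered by peaks (kb) in the windows of the 25 genes with the highest means. Each point is 1 WT library and the bar is the mean. The first 4 genes kept their order in every library, while the ranges of most neighbours further down overlapped.

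At some leaders the strongest peak lay nearer another gene. Tg, which encodes thyroglobulin of the thyroid, had 92.5, 79.8 and 76.8 kb, and in all 3 libraries its strongest peak lay nearer an end of Sla, a Src-like adaptor of lymphocytes. Ubac2 had 69.8, 69.1 and 78.5 kb, and its strongest peak lay nearer Gpr18, a receptor of lymphocytes. For Prkch it lay nearer a gene without a given name. A window cannot say which of several overlapping genes a peak serves. Over all genes covered in 3 libraries, 2420, or 18.9%, had their strongest peak nearer an end of another gene in every library. Ube2cbp, Atxn1, Trps1, Maml2, Septin9 and Alpk2 complete the 25, with means from 68.4 to 92.9 kb.

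The leaders by bases were long genes. The 25 had a median span of 234 kb and none was shorter than 114 kb, against a median of 17.2 kb over all genes. Across the 12815 covered genes, covered bases and span had a Spearman rho of 0.17. The share of the window covered fell with span, with a rho of -0.59. Genes share peaks with their neighbours, so these values are descriptions.

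Ranked by the share of the window covered, 6 of the first 15 genes were members of the T cell lists. Tmsb10, an actin-sequestering thymosin, was covered over 99.9% in each library. Tnf had 97.2% in WT replicate 1 and the whole window in the other two, and its neighbours Lta and Ltb, the lymphotoxins, had means of 95.6 and 95.4%. These 3 genes sit side by side on chr17 and share peaks. Bhlhe40, a factor needed for cytokine production by helper T cells, had 97.9, 97.7 and 97.7%. Tnfrsf18 and Tnfrsf4, the costimulatory receptors GITR and OX40, had 95.3 and 94.9% and are also neighbours. Il17a had the whole window in WT replicate 1, and 89.0 and 92.8% in the other two. Ly6a, Irf2bp2, Zfp36 and Gpr15 also stood among the first 15, as did 2 genes without a given name. In each of these the covered stretch filled nearly the whole span and both flanks.

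An olfactory receptor gene, Olfr530, also ranked there, with 92.4, 94.0 and 97.5% of its window covered. It belongs to a small group on chr7, since Olfr524 and Olfr525 had 72.6 and 87.6%. These exceptions stand against a family that is otherwise bare, as described below. No gene was among the first 25 of more than 1 of the 3 rankings. The leading 1000 genes by bases and by fold shared 154 genes.

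The ranking by highest fold named other genes. A peak shared by the windows of Rpl4, Zwilch and Snapc5 had folds of 45.9, 57.6 and 40.7, a mean of 48.1 ± 8.67 (SD, n = 3). Its summit lay nearer an end of Zwilch than of Rpl4 or Snapc5 in every library. Rpl4 (chr9:64173387-64178562) encodes a protein of the large ribosomal subunit and Zwilch a kinetochore protein. Snapc5 encodes a subunit of the complex that activates small nuclear RNA genes. The start after the Rpl4 sequence printed above lay under a peak in every library. The 3 folds overlapped with those of the next gene, Pfdn4, but all lay above those of St13. The peak was 2.84, 2.48 and 3.18 kb wide, and Rpl4 had 3.98 kb covered in all.

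The 25 genes of highest fold rested on 14 distinct sets of strongest peaks, since neighbouring genes share them. In all 3 libraries the strongest peak lay nearer another gene for Rpl4, Snapc5, St13, Tubb4a, Rilpl2, H3c15, H3c14, Sorbs3, Septin2, Dynlt1f and Grcc10. Pfdn4, a prefoldin subunit that helps fold actin and tubulin, had 16.7, 52.8 and 39.3. The pair St13 and Xpnpep3 had 39.0, 37.1 and 28.7, and St13 encodes a cochaperone of Hsp70. Spry1, an inhibitor of receptor signalling, had 30.4, 30.7 and 43.0. Slc7a1, the main transporter for arginine, had 26.4, 37.1 and 39.2. WT replicate 1 was lowest for Pfdn4, Spry1 and Slc7a1, and WT replicate 3 was lowest for the peak of St13. No library was the highest throughout.

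None of the 25 genes of highest fold was in a T cell list. The pair Tubb4a and Dennd1c had a mean of 33.4 ± 9.37, Ccdc15 33.1 ± 7.07, and the pair Rilpl2 and Snrnp35 32.1 ± 3.63. The replication-dependent histone genes H2ac19 and H3c15 had 28.9, 19.8 and 46.6, and their neighbours H2ac18 and H3c14 had 28.9, 17.7 and 46.6. These histone genes have near-identical copies, and the sources used here do not say how reads matching several copies were treated, so their values are uncertain. Ptpn6, the phosphatase SHP-1 that dampens T cell receptor signals, shared a peak with Grcc10 and had 26.8, 26.8 and 37.3. Pdlim2 with Sorbs3, Septin2 with Hdlbp and Dynlt1f with Sytl3 complete the 25. All 24 neighbouring pairs in this list had overlapping ranges, some because the pair shares its peak.

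**Figure D2:**
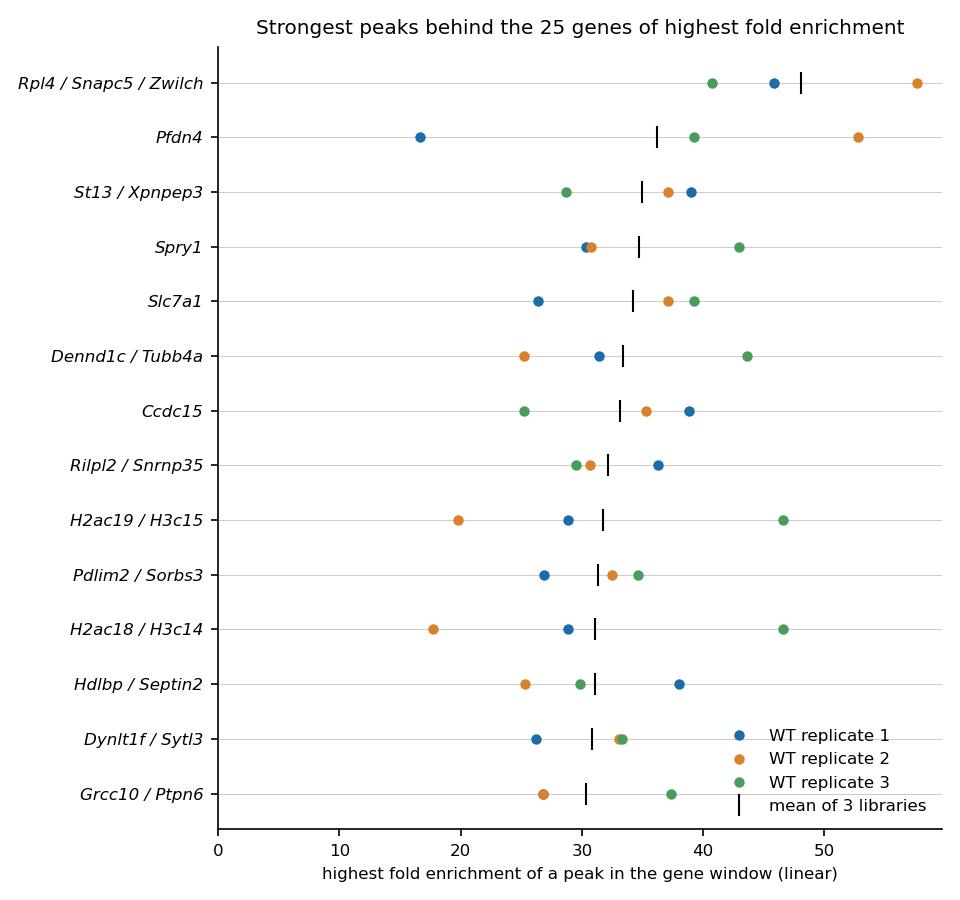
Highest fold enrichment (linear) of the 14 peak sets behind the 25 genes of highest fold, with the genes that share each. Each point is 1 WT library and the bar is the mean. The means run from 48.1 in the first row to 30.3 in the last, and the libraries of Pfdn4 from 16.7 to 52.8, the widest row.

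The fold divides a height by a local background, and both could be recovered. At the Pfdn4 peak the heights were 953, 915 and 826 fragments, and the backgrounds 56.2, 16.3 and 20.1 fragments. The low fold of WT replicate 1 there thus went with a high background, not with a low peak. Over the 12815 covered genes the coefficient of variation between libraries had a median of 20.4% for the highest fold. It was 10.2% for the tallest summit over the library's mean coverage and 9.98% for covered bases. Spearman rho between pairs of libraries was 0.70 to 0.71 for fold, 0.96 to 0.98 for the tallest summit and 0.95 to 0.96 for covered bases. The 100 leading genes of a pair shared 24 to 33 names by fold, 74 to 87 by height and 90 to 95 by bases. Ranks by fold are thus the least repeatable of the 3.

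**Figure D3:**
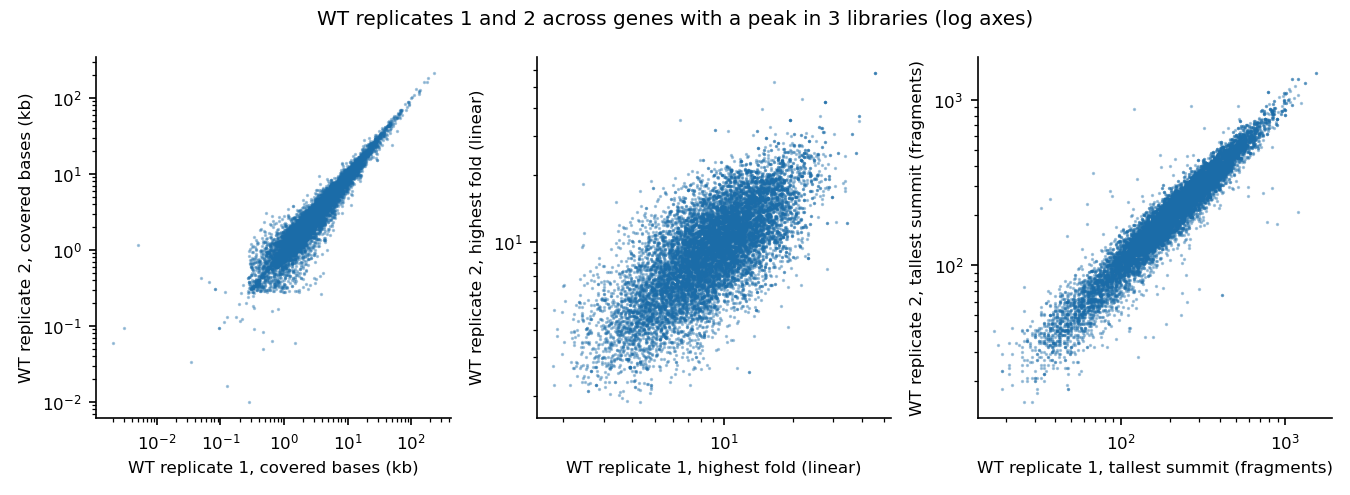
WT replicate 1 against WT replicate 2 for the 12815 genes with a peak in 3 libraries, on log axes: covered bases (kb), highest fold (linear) and tallest summit (fragments). Points are genes. The cloud of the fold is wider than the other two, as the rho of 0.71 against 0.95 and 0.96 for this pair says.

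By height the first genes were others again. The peak shared by Rbbp9 and Sec23b, the second a coat protein of secretory vesicles, reached 1532, 1439 and 1216 fragments, with a mean highest fold of 21.1. The summit in the windows of Il23a and Pan2 reached 1188, 1332 and 1028 fragments. Il23a encodes a subunit of interleukin-23. The peaks of Septin2 and St13 were in this list as well, among 6 genes that the first 25 by height and by fold shared. This ranking and its names were chosen after the values were seen.

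The T cell genes were nearly all covered. Of 158 genes in 8 T cell lists, 151 had a peak in all 3 libraries, or 95.6%, against 58.6% of all genes. Their median was 9.85 kb of covered bases and a fold of 11.6, against 1.29 kb and 5.81 over all genes. Genes without a peak count as 0 in these medians. Among genes covered in all 3 libraries, the medians were 10.1 kb and 11.7 in the T cell lists, against 2.75 kb and 9.67. Of these genes 73 were among the first 1000 by bases, where 4.57% of all genes are, and 19 among the first 1000 by fold, where 4.57% are as well. At least 50% of the window was covered in 40 of them, against 1.37% of all genes. The lists were drawn up with earlier results of these data known, and these counts are descriptions.

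All 24 genes of T cell receptor signalling were covered in each library, with a median of 17.3 kb. Prkcq, the protein kinase C of the immune synapse, had 66.1, 63.6 and 67.8 kb. Cd28, the main costimulatory receptor, had 34.0 kb in every library, or 91.9% of its window. Ptprc, which encodes CD45, had 49.6 kb ± 0.416. The invariant receptor chains were covered over less, with Cd3e at 6.96 kb, Cd3d at 9.86 kb and Cd3g at 10.1 kb, and these neighbours share peaks. Lck, the kinase that starts the signal, had 13.8 kb and a fold of 23.0, and Cd4 had 9.47 kb and a fold of 19.9. Lat, the adaptor, had 5.17 kb, the lowest of the list.

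All 22 T cell transcription factors were covered, with a median of 27.1 kb, the highest of any list. Besides Bach2, Foxp1, Ets1 and Lef1, the values were 51.2 kb for Bcl11b, which maintains T cell identity, 47.3 kb for the chromatin organiser Satb1 and 38.5 kb for Runx1. Gata3, the factor of Th2 cells, had 8.11 kb, and no library had a peak within 1 kb of either end of its span. Myb had 2.86 kb. Klf2, which drives homing receptors in resting T cells, was the exception, with 0.446, 0.339 and 0.447 kb and a mean fold of 2.78. The list thus ran from the second rank of all genes to near the lowest covered ones.

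Of 26 Th17 genes, 25 were covered in all libraries. The lineage factors Rora and Batf had means of 121 and 22.6 kb, and Irf4 had 24.5 kb over 88.2% of its window. No library had a peak within 1 kb of either end of the span of Rora. Among the 151 covered T cell genes this held for 6, the others being Gata3, Stat4, Foxp3, Il13 and Ccr10. Smad3, which carries TGF-beta signals, had 44.3 kb. The receptors Il6ra and Il23r had 36.3 and 22.7 kb, and Ccr6 had 15.8 kb. Among the cytokines Il21 had 17.6, 16.6 and 17.1 kb and Il17a 13.6, 12.1 and 12.6 kb. Il17f, the neighbour of Il17a, had 6.46, 3.01 and 4.54 kb, so all 3 of its values lay below all 3 of Il17a. Csf2 had 7.63 kb, Il24 2.03 kb and Il10 1.69 kb. The aryl hydrocarbon receptor gene Ahr had 5.72, 3.07 and 3.41 kb.

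Il22 had no peak in its window in any library, though it belongs to the same list. Its nearest peak was 9.30, 9.26 and 9.28 kb away, at nearly the same place each time. A window of 20 kb to each side would have included it. A peak list has a threshold, and no peak means only that none was called at this depth.

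The lists of other helper subsets were mixed. Of 11 Th1 genes, 9 were covered in all libraries. Il12rb2, a chain of the interleukin-12 receptor, had 26.5 kb, and Stat4, which carries its signal, had 18.4 kb. Tbx21, the factor that directs Th1 cells, had 1.55 kb ± 0.488 (SD, n = 3), and Eomes 1.59 kb. Hlx had a peak in 2 libraries. Ifng had none, and its nearest peak was 21.6, 21.7 and 21.7 kb away. The receptors and signal carriers of the list were thus covered over more than its cytokine and its main factor.

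Of 11 Th2 genes, 8 were covered in all libraries. Il4ra, the interleukin-4 receptor, had 11.9 kb, Gfi1 9.51 kb, Ccr4 9.08 kb and Stat6 5.88 kb. Among the cytokines Il13 had 0.663 kb, Il4 had 0.416 kb in WT replicate 3 alone, and Il5 and Il9 had none. The nearest peak to Il5 was 9.88 kb away and that to Il9 40.2 kb, in each library.

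All 16 genes of regulatory and follicular helper T cells were covered. Il2ra, the interleukin-2 receptor alpha chain, led with 28.3, 28.6 and 29.0 kb and a fold of 25.6. Ctla4 had 15.3 kb over 91.2% of its window, Pdcd1 16.4 kb and Bcl6 7.88 kb with a fold of 20.5. Foxp3, the factor of regulatory T cells, had 0.472 kb in each library, and that peak lay nearer Ppp1r3f. It had no peak within 1 kb of either end of its span. Foxp3 was thus the low exception of its list, as Klf2 was of the transcription factors.

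All 32 genes that stimulation induces early were covered, and all 32 had a peak within 1 kb of a gene end in every library, against 49.3% of all genes. They are short, with a median span of 4.66 kb, and had a median of 7.67 kb covered, 40.9% of the window. Nr4a1, an orphan nuclear receptor induced by receptor signals, had 15.3, 15.6 and 16.8 kb. Ier2, Dusp2 and Junb had 87.7, 80.6 and 78.2% of their windows covered. Jun, Egr2 and Cd69 had folds of 20.7, 20.1 and 19.6. Il2 had 6.28, 6.83 and 6.93 kb. Fos had the fewest, with 2.58, 1.94 and 2.19 kb. No unstimulated library was analysed here, so these values do not say what stimulation added.

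Of 16 genes of homing and adhesion, 15 were covered. Ccr7, which guides T cells to lymph nodes, had 15.2 kb, Itgae 14.6 kb and Selplg 14.4 kb. Ccr2 had 3.28 kb and Ccr10 0.715 kb. Ccr9, the receptor for homing to the small intestine, had none.

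All 20 housekeeping genes were covered, in shorter stretches. Their median was 4.26 kb and none was among the first 1000 by bases, while their median fold of 12.2 was close to the 11.6 of the T cell lists. Actb had 8.12 kb and a fold of 10.6, and Gapdh 4.41 kb and a fold of 15.8. Eef1a1, the elongation factor, had 4.93 kb in each library. Of 84 cytosolic ribosomal protein genes, 81 were covered in all libraries, or 96.4%, against 58.6% of all genes. The family had a median of 3.47 kb, and 14 of the 84 were among the first 1000 by fold, where 4.57% of all genes are. For 9 of the 81 the strongest peak lay nearer another gene in every library. The T cell lists and the housekeeping genes thus differed in the bases covered more than in the fold. They also differed in length, with a median span of 17.2 kb for the T cell lists and 5.13 kb for the housekeeping genes. The median share of the window covered was closer, at 33.1 and 27.9%.

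**Figure D4:**
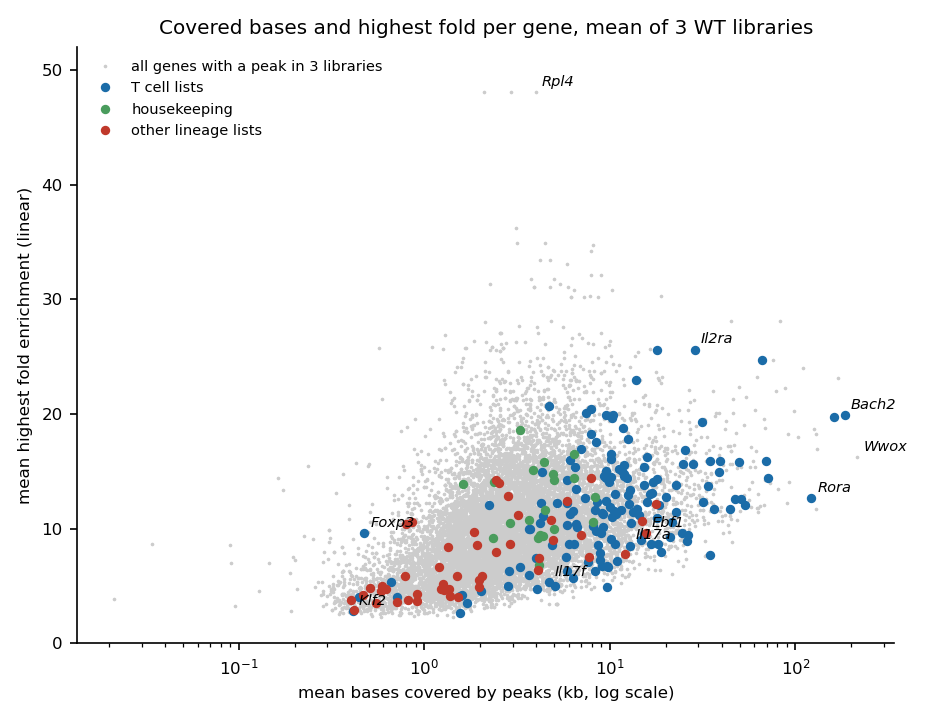
Mean bases covered by peaks (kb, log scale) against mean highest fold (linear) for each gene with a peak in 3 libraries. Grey points are all such genes, and coloured points are members of the lists. Many T cell genes lie to the right, beyond 10 kb, Rpl4 and its neighbours stand at the top at 48.1, and Foxp3 and Klf2 lie on the left at under 1 kb.

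Genes of other lineages were mostly bare. Of 166 genes in 12 lists, 100 had no peak in any library, or 60.2%, against 37.3% of all genes, and 47 had one in all 3. A peak within 1 kb of a gene end in every library was present for 23, or 13.9%, against 49.3% of all genes. Among the 47 covered genes the median was 1.52 kb, and 28 were under 2 kb, against 9 of the 151 covered T cell genes. For 11 of the 47 the strongest peak lay nearer another gene in every library. The mean distance from an uncovered gene to its nearest peak had a median of 43.7 kb and ranged from 5.55 to 568 kb.

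Of 14 hepatocyte genes, 11 had no peak, among them Alb, Apoa1 and Ttr, which encode plasma proteins. Of 12 genes of germ cells and pluripotency, 9 had none, among them Pou5f1, Nanog and Sox2. The nearest peak to Sox2 was 568 kb away in each library, the farthest of these lists. Of 24 developmental genes, 16 had none, including Hoxd13, Shh, Otx2 and Pax2, while Lhx2 had 4.12 kb ± 0.476 (SD, n = 3). Of 13 muscle genes, 8 had none, among them Myod1 and Myog. Of 15 neuronal genes, 8 had none, among them Neurod1 and Gad1. Of 11 fibroblast genes, 7 had none, among them Col1a1 and Col3a1, and of 11 epithelial genes 7 had none, among them Cdh1 and Krt5.

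The blood lineages differed among themselves. Of 15 B cell genes, 9 had no peak, including Ms4a1, Pax5 and Cd79b. Cd79a had 7.40, 8.23 and 7.94 kb, but its strongest peak lay nearer Arhgef1. The same held for Fcer2a beside Trappc5, Vpreb1 beside Top3b and Cr2 beside Cr1l. Ebf1, the factor that commits cells to the B lineage, had 15.1, 14.5 and 17.3 kb, 3.90% of a very long window, and a peak near an end of the gene in every library. Of 17 myeloid genes, 9 were covered in every library, or 52.9%, close to the 58.6% of all genes. No peak was called for 6, or 35.3%, close to the 37.3% of all genes, and these included Lyz2, S100a8, S100a9 and Elane. Itgam, an integrin chain of myeloid cells, had 4.12 kb, and Flt3, a growth factor receptor of progenitor cells, 5.87 kb. Neither had a peak within 1 kb of either end of its span in any library. Of the 17 myeloid genes, 3 had such a peak in every library. Spi1, which encodes PU.1, had 8.21, 7.75 and 7.16 kb. Of 12 erythroid and megakaryocyte genes, 8 had none, including the globins Hba-a1 and Hbb-bs and the factor Gata1.

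Genes of CD8 T cells and natural killer cells were mixed, as the myeloid ones were. Of 12, 6 were covered in all libraries and 5 in none. These shares of 50% and 41.7% were near the 58.6% and 37.3% of all genes. Klrd1 and Klrk1, lectin-like receptors, had 6.97 and 4.95 kb. Cd8b1 had 1.92 kb while its neighbour Cd8a had no peak. Gzmb, a granzyme, had 0, 1.76 and 1.15 kb, and Prf1, perforin, 0.438, 0.469 and 0.348 kb. Of 10 endothelial genes, 6 had none, while Pecam1 had 20.7, 15.8 and 16.5 kb and Erg 16.4, 15.6 and 12.7 kb. Pecam1, Erg, Ebf1 and the kinase gene Camk2a, with 13.6, 11.2 and 11.3 kb, were the 4 genes of other lineages among the first 1000 by bases. The lists of other cell types thus held both bare and covered members. In the B cell list 6 of 15 genes were covered in every library, with 0.791 kb for Cr2 to 15.6 kb for Ebf1. In the hepatocyte list 3 of 14 were, with 0.910 kb for Hnf4a, 1.38 kb for Cyp2e1 and 1.97 kb for Fgg. In the epithelial list 3 of 11 were, with 0.465 kb for Epcam, 1.52 kb for Grhl2 and 4.82 kb for Cldn4. Whether other cells were present in the cultures was not tested.

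**Figure D5:**
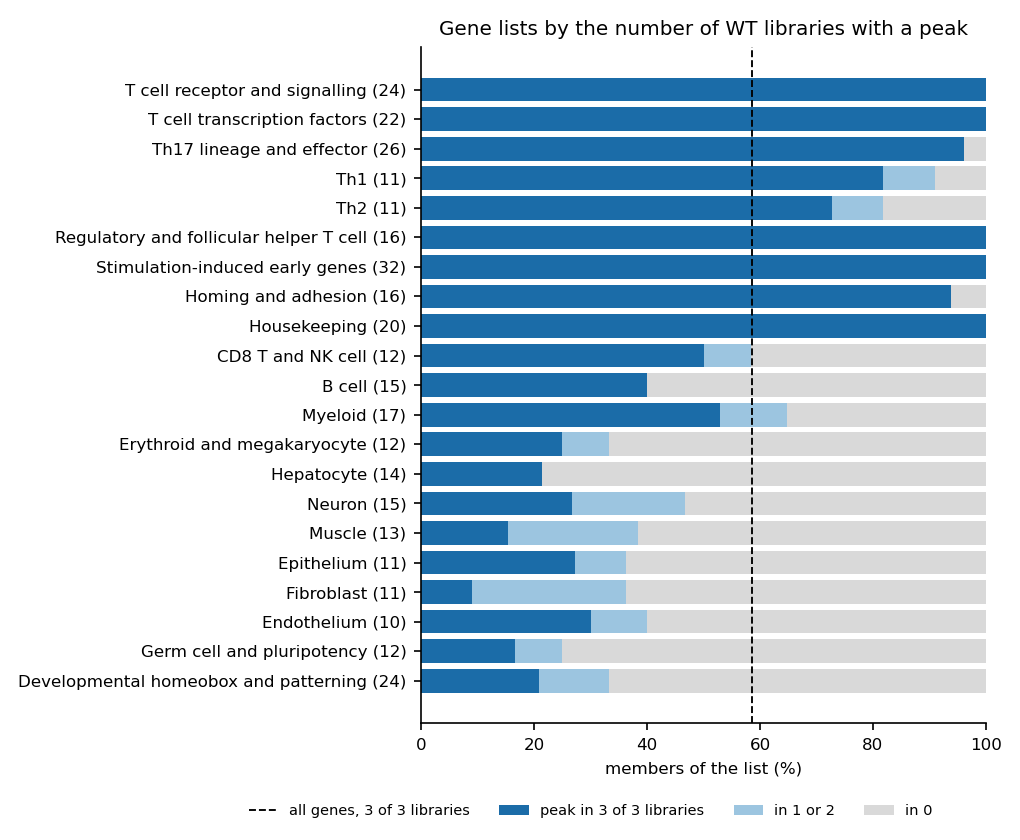
Share of each gene list (%, number of genes in brackets) with a peak in 3, in 1 or 2, or in 0 WT libraries. The dashed line is the share of all genes with a peak in 3 libraries, 58.6%. All 8 T cell lists and the housekeeping list lie above it and the 12 other lists below it.

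The uncovered genes were in part large families. Of 1106 olfactory receptor genes, 1073 had no peak, or 97.0%, against 37.3% of all genes. They made up 13.1% of all uncovered genes. Of 353 vomeronasal receptor genes, 351 had none, of 105 keratin and keratin-associated genes 100, of 42 beta-defensins 37 and of 38 taste receptors 36. Zfp genes of the zinc finger family differed, with 317 of 394 covered in every library, or 80.5%, against 58.6% of all genes. The families form long bare stretches. On chr2 a run of 227 uncovered genes from Aplnr to Olfr1274 spanned 5.27 Mb and held 222 olfactory receptors. On chr7 a run of 106 held 86 vomeronasal receptors. The longest run of genes covered in every library was 43 genes on chr3, from Prune1 to Fcgr1, over 1.04 Mb.

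Coverage also differed between chromosomes. On chr19 and chr11 a peak reached 66.8 and 66.7% of the genes in all libraries, and on chr7 and chr14, which hold receptor families, 50.5 and 50.8%. On chrX it reached 38.3%, and of the 256 genes of chrY none was covered. Each library had 1 peak on the whole of chrY. Whether the cells carried a Y chromosome, and whether reads could be placed on it, was not tested. These 256 genes are among the 8163 without a peak. Uncovered genes were shorter, with a median span of 8.30 kb against 22.9 kb for genes covered in every library. A longer gene has a longer window for a peak to touch, so part of this difference is built into the measure. The uncovered genes also include most olfactory and vomeronasal receptor genes, families with median spans of 0.95 and 0.96 kb. The number of genes within 100 kb had a median of 3 for both.

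A promoter sequence was given for 81.0% of the genes covered in all libraries. Among these the median was 20 CG in 300 bases, with an observed to expected ratio of 0.76 and a GC content of 60.3%. In every library a peak lay over a listed start of the gene for 66.7% of them. That share took any listed start, while the CG values of each gene came from a single start. The same values for uncovered genes, for the T cell lists and for the lists of other lineages are void, since fewer than 80% of their members had a promoter sequence, at 79.0, 74.7 and 75.3%.

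The libraries differed most at a few long genes. Among genes with a mean of at least 10 kb, the coefficient of variation was highest for Peli2, with 15.0, 9.78 and 5.90 kb, and for Pde1a, with 49.7, 24.3 and 24.8 kb. Ahrr, the repressor of the aryl hydrocarbon receptor, had 16.5, 9.37 and 8.38 kb. Tenm4, Slc17a8, Dst, Dip2c and Myo3b followed, along with 2 genes without a given name. WT replicate 1, the library with the most peaks and the highest mean coverage, had the highest value at each of the 8 named genes. The choice of genes favours this, since Peli2, Ahrr, Dst and Myo3b had less than 10 kb in both other libraries. They reached the mean of 10 kb only through WT replicate 1. The part of depth in the high values of WT replicate 1 was not tested.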

How the data were processed

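H3K9/14ac was profiled by RELACS, in which chromatin is barcoded in the nuclei before pooling, with 5 µg of antibody per the labels' protocols. Tools named in the submitters' processing notes are MACS2 2.2.6 and deepTools 3.3.2, with Bowtie2 2.3.5.1, and, for demultiplexing and trimming, bcl2fastq 2.20.0.422 and cutadapt 2.8. The notes give GRCm38 and mm10 as builds. The sources used here do not say whether input was the control for peaks. The authors deposited peak lists called per library. Paired-end lists were used, single-read lists as an alternative. Per the file layout, the deposited columns hold a fold enrichment (a linear ratio) and a −log10 p-value and q-value, with a lowest −log10 q of 3.00 to 3.01. The authors computed both the fold and the p-value of each peak.

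Protein-coding genes of GRCm38.p6 on chromosomes 1 to 19, X and Y were given windows of 5 kb to each side; the annotation used has no exons, introns or strand. A peak counted on an overlap of 1 bp. Heights and backgrounds were solved from fold, (height + 1) / (background + 1), and the Poisson p. A scale of 0.890, 0.922 and 1 for the libraries gave whole fragments (within 0.02) for 100% of peaks, and deliberately wrong scales for 4.15 to 13.5%. Tested on simulated data, 100% of heights (at least 2869 peaks) and 200 of 200 windows were right. Mean coverage was read as the smallest background value that 50 or more peaks had in common. Python 3.11.15, numpy 2.4.6, pandas 2.3.3, scipy 1.17.1 and matplotlib 3.10.9 were used.

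Members, lists and rankings were chosen with earlier results of these data known. Named are the first 25 genes by bases and by fold, the first 15 by share, the 10 of highest coefficient of variation with a mean of at least 10 kb, members of the lists and, per family, the 3 with most covered bases. Symbols of the form Gm plus digits or ending in Rik are counted only. Neighbours of a peak are named by position. Tf was matched as Trf. Alternatives are given in the closing section. A few members of the lists are counted but not reported here by name.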

Additional observations from a re-analysis of the deposited data

Results flagged for a closer look

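Peaks outside the chromosomes used for genes were present in every library. WT replicate 1 had 33 peaks on unplaced scaffolds, WT replicate 2 had 30 and WT replicate 3 had 27, and 24, 23 and 21 of these were on 1 scaffold. They enter no gene window. The tallest summit of each library, at 4716, 3601 and 3518 fragments, was the height found on that scaffold. Their source was not tested.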

How the results depend on the processing

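Genes covered in every library numbered 10979 to 14443 and genes covered in none 6655 to 9427 under the alternatives. By bases, 22 to 25 of the first 25 genes were shared under each alternative, except that ranking by share of the window shared 0. By fold, 14 were shared with single-read lists, 15 with no flank, 14 with a flank of 20 kb, 12 with each peak given to 1 gene, 7 when ranked by −log10 p and 6 when ranked by height, the last chosen after seeing the data. T cell genes without a peak were 8 with single-read lists, 8 with no flank, 2 with a flank of 20 kb and 12 with each peak given to 1 gene. Other lineage genes covered in every library were 27 with no flank and 77 with a flank of 20 kb. With −log10 q of at least 5, the median span of covered genes was 22.8 kb and their promoter CpG ratio 0.758. Leaving out 1 library in turn gave ratios of 0.753 to 0.754, and a median span of uncovered genes of 8.40 to 8.52 kb. The cause was not tested. Of 4675 values of covered bases of named genes 1102 moved by more than 1 SD, and of 4675 of fold 354. No paired analysis was possible because there is 1 group and no contrast. Depth limits low peaks: a gene without a peak may hold acetylation below the threshold.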

Other observations

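The longest peak of each library lay outside the windows of protein-coding genes. In every library the longest was a stretch of 60.02, 60.02 and 60.11 kb on chr5, at chr5:53403071-53463092 in WT replicate 1, with folds of 15.7, 20.1 and 20.5. Its nearest protein-coding gene was Rbpj, which encodes the DNA-binding partner of Notch, 92.7 kb away. A stretch of 47.0, 44.9 and 45.1 kb on chr1 ended 5.64 kb from Rgs1, a regulator of chemokine signalling.

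The T cell receptor loci are not annotated as protein-coding and are missing from the rankings above. A single peak of 55.1, 55.0 and 43.1 kb on chr14 overlapped 49, 49 and 38 J segments of Tcra, the alpha chain locus. Over the whole loci, Tcra had 86.6 kb ± 2.60 (SD, n = 3) covered and Tcrb, the beta chain locus, 96.9 kb ± 3.11. The constant regions Trbc1 and Trbc2 were covered over 100% and Trac over 92.2%. Tcrd, the delta chain locus, had 0.904, 0.372 and 0.429 kb, and Tcrg, the gamma chain locus, 0, 0 and 0.273 kb. The immunoglobulin heavy chain locus Igh had 15.5 kb over 2751 kb, with none over the constant region Ighm. The kappa light chain locus Igk had 2.56 kb ± 1.32, and its constant region Igkc was covered over 0.320, 0.250 and 0.250 kb, or 85.4%. These loci were chosen after the peaks were seen.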
